A study of Homo sapiens with 30 samples.

Results

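The genes described here are dihydrolipoamide dehydrogenase (DLD) and its partners in the pyruvate and 2-oxoglutarate dehydrogenase complexes and in the tricarboxylic acid (TCA) cycle. The list held 9 genes, DLD, PDHA1, DLAT, OGDH, DLST, CS, IDH3A, MDH2 and FH. Members were the probe sets whose platform annotation gave 1 of these symbols and no other. This found 13 probe sets of 8 genes, among 19071 probe sets with 1 symbol that stand for 11963 genes. FH, fumarate hydratase, had no probe set under this rule and was not analysed here. DLD was selected on its measured line by dose difference in these same arrays, so its values are a description with no test. The other genes share its pathway, and they too were listed with earlier results of these arrays known.

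RNA came from GM15036 and GM15510, which are established human lymphoblastoid lines, that is, B cells immortalised with Epstein-Barr virus. Both lines were grown in suspension and irradiated from a caesium source. The groups were GM15036 at 1, 2.5, 5, 7.5 and 10 cGy and GM15510 at the same 5 doses, with 3 Affymetrix arrays each, 30 arrays in all. Doses follow the labels, in cGy; the design text has the same figures in Gy. Every group was irradiated, so all dose comparisons were made with 1 cGy and none with cells that received no dose. How long after irradiation the RNA was taken is not stated there. A difference between the lines is a difference between these particular lines. Whether arrays of 1 group had a culture each is also not stated, and if they had not, the spread behind the p-values is technical.

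Pyruvate dehydrogenase converts pyruvate to acetyl-CoA in mitochondria and so links glycolysis to the TCA cycle. It is built from E1 (PDHA1 and PDHB), E2 (DLAT), E3 (DLD) and an E3-binding protein (PDHX). The 2-oxoglutarate dehydrogenase complex, a step of the cycle itself, has its own E1 (OGDH) and E2 (DLST) and shares E3 with pyruvate dehydrogenase, the branched-chain ketoacid dehydrogenase and the glycine cleavage system. E3 reoxidises the lipoyl arm of E2 and passes the electrons to NAD+, which makes DLD the one subunit that all of these complexes have in common.

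The promoters of 4 member genes are shown first. DLD is in this set by its listing, with no test. The others had a probe set past the line by dose test given further on. For PDHA1 this was 200980_s_at alone and for MDH2 209036_s_at alone. For IDH3A it was both 202069_s_at and 202070_s_at. Each window runs from 250 bases before to 50 after the RefSeq start on GRCh38.p14, 300 bases on the plus strand. Capitals mark matches on either strand to 7 motifs, of which the GC box reads GGGCGG and the ETS site CCGGAAG. The NRF1 site was searched as GCGCATGC, and the motif named after its letters as CCAAT. The E-box was CACGTG. The TATA box was searched as TATAAA and the half-site of the ERR receptors as AAGGTCA. The windows are chr7:107890857-107891156 for DLD, chrX:19343677-19343976 for PDHA1, chr15:78149112-78149411 for IDH3A and chr7:76047856-76048155 for MDH2.
DLD: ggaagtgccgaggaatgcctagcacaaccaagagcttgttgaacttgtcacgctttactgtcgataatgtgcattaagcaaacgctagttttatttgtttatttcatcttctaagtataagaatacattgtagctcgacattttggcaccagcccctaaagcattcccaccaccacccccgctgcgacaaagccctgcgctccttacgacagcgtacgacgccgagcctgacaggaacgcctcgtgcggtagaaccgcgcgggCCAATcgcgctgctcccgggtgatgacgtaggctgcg
PDHA1: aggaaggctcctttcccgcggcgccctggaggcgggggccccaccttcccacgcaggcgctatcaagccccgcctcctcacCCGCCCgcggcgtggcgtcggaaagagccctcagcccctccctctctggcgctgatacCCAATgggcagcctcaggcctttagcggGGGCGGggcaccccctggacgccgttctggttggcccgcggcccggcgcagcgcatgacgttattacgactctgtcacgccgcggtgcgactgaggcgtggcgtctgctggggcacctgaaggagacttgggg
IDH3A: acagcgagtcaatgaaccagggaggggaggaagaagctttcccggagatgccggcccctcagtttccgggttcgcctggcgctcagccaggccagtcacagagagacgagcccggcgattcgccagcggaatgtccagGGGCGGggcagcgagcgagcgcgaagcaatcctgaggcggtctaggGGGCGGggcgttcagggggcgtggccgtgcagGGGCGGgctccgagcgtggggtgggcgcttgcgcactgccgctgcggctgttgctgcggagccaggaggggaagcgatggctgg
MDH2: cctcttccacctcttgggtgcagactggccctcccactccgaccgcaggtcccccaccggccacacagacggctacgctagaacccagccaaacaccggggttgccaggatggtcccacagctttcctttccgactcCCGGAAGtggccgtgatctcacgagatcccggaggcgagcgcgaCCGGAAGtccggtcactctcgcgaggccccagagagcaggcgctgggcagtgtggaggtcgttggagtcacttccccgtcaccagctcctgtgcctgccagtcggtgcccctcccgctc
The DLD window held 1 CCAAT match and no GC box. PDHA1 had 2 GC boxes and 1 CCAAT match, IDH3A had 3 GC boxes, and MDH2 had 2 ETS matches. None of the 7 motifs lay in all 4 windows. Promoters were found for 8 of the 9 listed genes, all but OGDH. Of these 8, 5 held a GC box, against 45% of 35116 promoters of the same length. A CCAAT match lay in 4 of 8 (34.6% of all) and an ETS match in 2 of 8 (10.3% of all). No match to the NRF1, E-box, TATA or ERR letters lay in any of the 8 windows. A match is only a run of letters in these windows.

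Signals below are array intensities after each array was scaled to a common trimmed mean, and log2 values are of that signal plus 4. Before scaling, the trimmed mean of an array, called its brightness here, ran from 14.1 to 112. Group means of brightness in GM15036 were 69.6, 49.8, 51.3, 32.4 and 22.1 from the lowest to the highest dose. In GM15510 they were 69.4, 18.7, 39.0, 67.7 and 89.1. Brightness therefore moved with dose differently in the lines, and its values are given beside the results. It was not the only technical measure that differed by group. For ACTB, the 3-prime probes outshone the 5-prime probes by 4.22 log2 units in GM15036 at 1 cGy. At its other doses the group means were 4.80 to 5.18. In GM15510 they were 3.58 at 1 cGy and 3.59 to 4.94 at the other doses. For GAPDH they were 2.45 to 2.80 in GM15036 and 2.25 to 2.45 in GM15510. Either ratio serves as a covariate in fits below. Some fits below leave out the 5 dimmest arrays. Only 1 array is then left in GM15036 at 10 cGy and 1 in GM15510 at 2.5 cGy. A call kept or lost in such a fit therefore says little about those groups. No pair of arrays held identical values. All 7 B cell markers named on the array lay above the filter on dim signal, with a summed signal of 1404 to 2202 per array. Of 7 T and NK cell markers 1, CD3E, did, with the list's sum at 21.7 to 77.7. CD3D, CD3G, CD2, CD8A, NKG7 and KLRD1 lay below the filter. None of 5 monocyte markers lay above the filter (7.42 to 39.2), whereas 1 of 2 erythroid (3.92 to 26.7) and 2 of 4 fibroblast markers did (19.8 to 71.1). In such bulk RNA, fewer cells with a transcript and less of it per cell cannot be told apart.

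DLD, the shared E3, had 1 probe set (209095_at), brighter on average than 97.3% of all probe sets. At 1 cGy the GM15036 arrays read 520, 561 and 552. They read 442, 554 and 523 at 2.5 cGy and 561, 496 and 519 at 5 cGy, within or close to the same range. At 7.5 cGy they read 422, 397 and 402, and at 10 cGy 295, 238 and 264. Every array at 7.5 and 10 cGy lay below every array at 1 cGy, and those at 10 cGy were the lowest of all 30. As means ± SD (n = 3) the signal went from 544 ± 21.8 at 1 cGy to 407 ± 13.2 at 7.5 cGy and 266 ± 28.8 at 10 cGy.

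GM15510 followed another course. Its DLD signals were 684, 660 and 724 at 1 cGy, then 518, 628 and 496 at 2.5 cGy and 504, 524 and 523 at 5 cGy. At 7.5 cGy they were 674, 675 and 730, and at 10 cGy 713, 738 and 666. The middle doses thus lay below every array at 1 cGy, and the highest doses overlapped with it. The group means ± SD (n = 3) were 690 ± 32.5, 548 ± 70.4, 517 ± 11.3, 693 ± 32.2 and 705 ± 36.5 in order of dose.

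**Figure D1:**
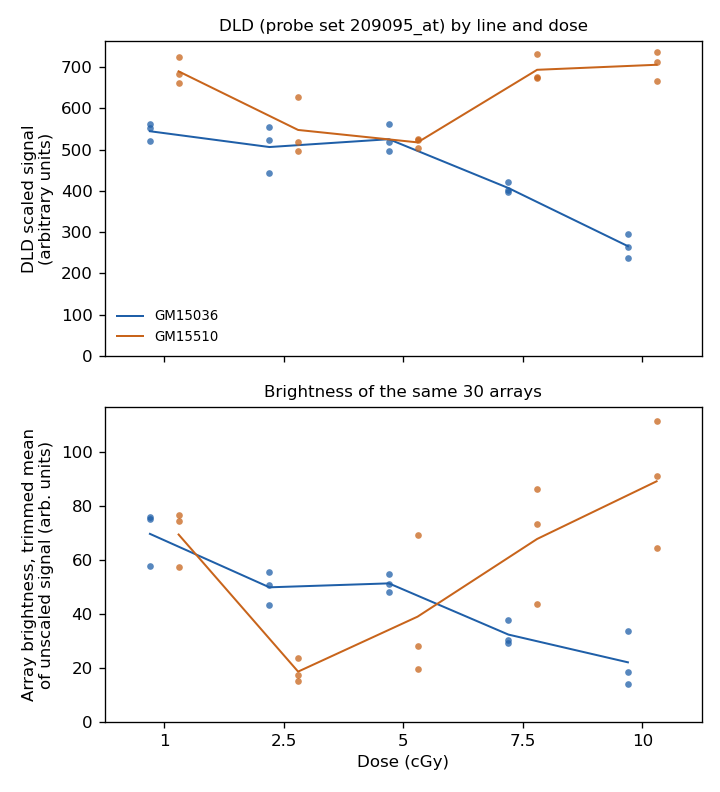
DLD signal on each array (upper panel, linear axis from 0 in arbitrary units) and the brightness of the same arrays before scaling (lower panel) against dose in cGy at equal steps, with 3 arrays a group as points and group means as lines for GM15036 and GM15510. DLD in GM15036 lies lowest at 10 cGy (238 to 295), where brightness is also lowest in that line (mean 22.1), and DLD in GM15510 lies lowest at 2.5 and 5 cGy, where its brightness means are 18.7 and 39.0.

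On the log2 scale, DLD differed from 1 cGy in GM15036 by -0.11, -0.05, -0.42 and -1.03 at 2.5, 5, 7.5 and 10 cGy, each with SE 0.094. In GM15510 the differences were -0.34, -0.41, 0.01 and 0.03. The dose difference in GM15510 minus that in GM15036 was -0.23, -0.36, 0.42 and 1.06 in the same order (SE 0.133). These are the values for which DLD was listed, and they carry no test. Ordered by mean log2 signal, GM15510 at 10, 7.5 and 1 cGy came first (9.47, 9.44 and 9.44). Next came GM15510 at 2.5 cGy, GM15036 at 1 and 5 cGy, GM15510 at 5 cGy and GM15036 at 2.5 cGy, from 9.10 to 8.99. GM15036 at 7.5 cGy (8.68) and at 10 cGy (8.07) came last. The steps of 0.34, 0.31 and 0.61 between these 4 blocks exceeded the larger SD of the neighbouring groups, and no step within a block did. This order too comes from the values DLD was listed for, so it is a description and no test.

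The groups with low DLD were also groups with dim arrays. At 10 cGy the GM15036 arrays had a brightness of 18.4, 14.1 and 33.8, and the GM15510 arrays at 2.5 cGy 23.7, 17.3 and 15.0. With log2 brightness as a covariate, the difference at 10 cGy in GM15036 was -0.90 and at 7.5 cGy -0.34, and in GM15510 it was -0.20 at 2.5 cGy and -0.34 at 5 cGy. Within GM15510 at 5 cGy, the arrays spanned a brightness of 19.5, 28.1 and 69.3, and DLD read 504, 524 and 523 on them. That is 1 group only, and the part of brightness in the DLD pattern was not tested. With each unscaled array centred on its median, the difference at 10 cGy in GM15036 was -1.66 and at 2.5 cGy in GM15510 -1.10. Leaving out any 1 array kept the GM15036 difference at 10 cGy between -1.11 and -0.95.

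Of the pyruvate dehydrogenase subunits, PDHA1, the E1 alpha subunit, rose in GM15510 on the brighter of its 2 probe sets and passed no dose test in GM15036. On 200980_s_at the GM15510 arrays read 340, 358 and 308 at 1 cGy and 427, 485 and 392 at 2.5 cGy. They read 394, 339 and 332 at 5 cGy, 391, 376 and 415 at 7.5 cGy, and 461, 459 and 464 at 10 cGy. All arrays at 2.5, 7.5 and 10 cGy lay above those at 1 cGy, and those at 5 cGy overlapped with them. The difference from 1 cGy was 0.37 (SE 0.090, limma adjusted p 0.0076) at 2.5 cGy and 0.46 (SE 0.090, adjusted p 0.0011) at 10 cGy. In GM15036 the same probe set read 460, 437 and 419 at 1 cGy and 391, 396 and 424 at 10 cGy, a difference of -0.12 (adjusted p 0.464). The dimmer probe set, 200979_at (25.6 to 75.9 over all arrays), passed no test in either line. Its difference at 2.5 cGy in GM15510 was -0.37 (adjusted p 0.344), opposite in sign to that of 200980_s_at, so the rise at 2.5 cGy rests on 1 probe set. It did not pass without GM15510 1 cGy replicate 3 (0.31, adjusted p 0.061) or 2.5 cGy replicate 2 (0.29, adjusted p 0.062), nor with centring after scaling or without the 5 dimmest arrays. With brightness as a covariate it was 0.26 (adjusted p 0.457), and with median centring it turned to -0.39 (adjusted p 0.0511). The rise at 10 cGy was 0.48 with the covariate (adjusted p 0.00067) and failed only with median centring (0.50, adjusted p 0.123).

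DLAT, the E2 core that carries the lipoyl arms, had 3 probe sets, and none of them passed a dose test in either line. Those of GM15036 differed by -0.54 (211150_s_at), -0.56 (212568_s_at) and -0.40 (213149_at) between 10 and 1 cGy, with adjusted p of 0.192, 0.059 and 0.170. The corresponding GM15510 values were -0.53, -0.27 and -0.27, with adjusted p of 0.302, 0.592 and 0.534. The sign was thus the same on all 3 in both lines, and the SE, 0.184 to 0.259, was large beside them. On 212568_s_at the GM15036 arrays went from 43.3, 46.5 and 46.2 at 1 cGy to between 24.8 and 40 at 10 cGy, without overlap.

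Of the E1 and E2 of the 2-oxoglutarate dehydrogenase complex, OGDH was too dim to test. Its probe set 201282_at gave 1.02 to 20.7 per array with a median of 3.09, below the limit that left out the dimmest 40 percent of probe sets. When all probe sets were kept it passed no comparison, with a line difference of 0.34 (adjusted p 0.201). Little OGDH mRNA and poor hybridisation of these probes cannot be told apart here.

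DLST, the E2 of that complex, read 72.9, 84.6 and 79.6 in GM15510 at 1 cGy and 106, 174 and 81.9 at 2.5 cGy. The array at 81.9 overlapped with the 1 cGy group and the one at 174 was the highest of all 30. The difference, 0.52 (SE 0.156, adjusted p 0.0307), passed the test but was 0.23 (adjusted p 0.319) without the array at 174. That array was 2.5 cGy replicate 2. The difference also failed without GM15510 1 cGy replicate 1 or replicate 3 and with brightness as a covariate (0.52, adjusted p 0.393), and turned to -0.16 (adjusted p 0.577) with median centring. It failed too with eBayes without a trend, with GM15510 fitted alone, with centring after scaling and without the 5 dimmest arrays. The F test over all GM15510 doses gave an adjusted p of 0.0589. In GM15036, DLST lay between 108 and 142 on all 15 arrays.

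**Figure D2:**
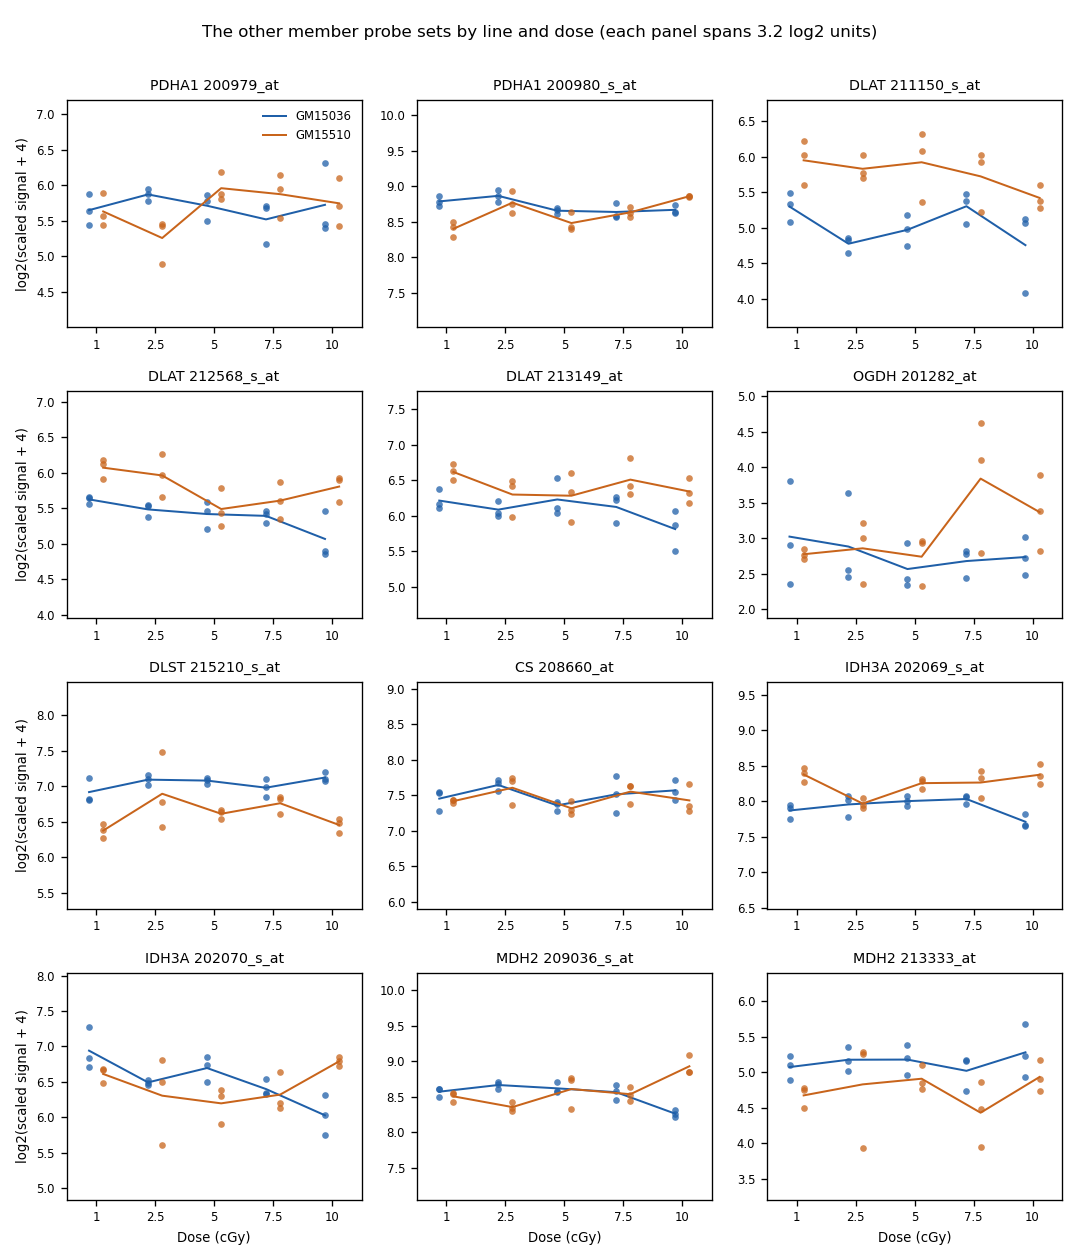
Log2 of scaled signal plus 4 on each array (vertical axis, 3.2 log2 units in every panel) against dose in cGy at equal steps for the 12 member probe sets other than that of DLD, with arrays as points and means of 3 arrays as lines for GM15036 and GM15510. MDH2 209036_s_at separates the lines at 10 cGy (means 8.26 and 8.93), and the lines of CS overlap throughout.

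Among the cycle enzymes, MDH2, the mitochondrial malate dehydrogenase, changed in opposite directions in the lines on the brighter of its 2 probe sets. On 209036_s_at the GM15036 arrays read 357, 386 and 384 at 1 cGy and 314, 292 and 301 at 10 cGy, with 346 to 413 on the 9 arrays between these doses. GM15510 read 366, 372 and 339 at 1 cGy and 458, 538 and 456 at 10 cGy, and 309 to 429 at the doses between. The 10 cGy arrays were the lowest of GM15036 and the highest of GM15510. GM15036 fell by 0.31 (SE 0.098, adjusted p 0.0340) and GM15510 rose by 0.42 (SE 0.098, adjusted p 0.0056). The fall in GM15036 was close to the threshold: it did not pass without GM15036 1 cGy replicate b or c or without any of the 10 cGy arrays (adjusted p up to 0.115), nor under 6 of 16 alternatives. With brightness as a covariate it was -0.10 (adjusted p 0.828). The rise in GM15510 was 0.38 (adjusted p 0.0085) with the covariate. It did not pass without GM15510 10 cGy replicate 2 (0.35, adjusted p 0.062) or with centring on the median, before or after scaling (adjusted p up to 0.254). The second MDH2 probe set, 213333_at, was dim (11.3 to 47.2) and passed no dose test, with 0.21 in GM15036 (adjusted p 0.722) and 0.26 in GM15510 (adjusted p 0.779) at 10 cGy.

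IDH3A, the catalytic subunit of the NAD-dependent isocitrate dehydrogenase, had 2 probe sets that differed from each other. On 202070_s_at GM15036 fell from 111, 101 and 150 at 1 cGy to 61.3, 49.9 and 75.5 at 10 cGy. The arrays at 2.5 and 7.5 cGy lay between, at 76.3 to 88.8, and those at 5 cGy read 111, 102 and 86.9. The fall at 10 cGy was -0.91 (SE 0.203, adjusted p 0.0023). With brightness as a covariate it was -0.46 (adjusted p 0.476), and it also failed without the 5 dimmest arrays. The same probe set in GM15510 read 98.7, 97.9 and 85.6 at 1 cGy and 101, 112 and 107 at 10 cGy, a difference of 0.18 (adjusted p 0.787). On the brighter 202069_s_at, GM15036 read 237, 244 and 211 at 1 cGy and 199, 197 and 222 at 10 cGy, which overlap, and differed by -0.16 (adjusted p 0.375). GM15510 instead fell at 2.5 cGy, from 332, 304 and 352 to 242, 237 and 261, by 0.41 (SE 0.103, adjusted p 0.0095). That fall was -0.27 (adjusted p 0.516) with the brightness covariate and -0.36 (adjusted p 0.0593) without GM15510 1 cGy replicate 3, and it failed without the 5 dimmest arrays.

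CS, citrate synthase, which joins acetyl-CoA to oxaloacetate at the entry of the cycle, passed no test. It read 152, 181 and 183 at 1 cGy and 169, 184 and 206 at 10 cGy in GM15036. In GM15510 it read 163, 169 and 168, and 151, 198 and 159. The differences were 0.12 (SE 0.126, adjusted p 0.637) and 0.01 (SE 0.126, adjusted p 0.989), and all groups overlapped with 1 cGy of their line except the arrays of GM15036 at 2.5 cGy (184, 199 and 205).

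Counted over the 11 member probe sets tested for dose, those of PDHA1, DLAT, DLST, CS, IDH3A and MDH2, calls were few. In GM15036, 0 of 11 passed at 2.5, 5 and 7.5 cGy, where 0.548%, 0.143% and 3.22% of all 13331 tested probe sets did. In these 3 comparisons limma gave an unadjusted p under 0.05 for 1, 0 and 1 of the 11. At 10 cGy 2 of 11 passed, both lower (18.2%, against 11.7% of all and 7.35% lower), with a median of -0.16 over the members and 0.03 over all probe sets. In GM15510, 3 of 11 passed at 2.5 cGy (2 higher, 1 lower; 27.3%, against 9.49% of all, 3.92% higher and 5.57% lower). At 10 cGy 2 passed, both higher (18.2%, against 5.91% of all and 3.09% higher). At 5 and 7.5 cGy 0 passed in limma (4.19% and 1.79% of all), with 2 and 3 at an unadjusted p under 0.05. The GM15510 median at 10 cGy was 0.08, against -0.00 for all probe sets. These comparisons share the 1 cGy arrays of their line. The split of all calls moved with the scaling. At 10 cGy in GM15036 it was 585 higher and 980 lower, and 74 and 4251 with centring of unscaled arrays on the median. At 2.5 cGy in GM15510 it was 523 and 742, and 74 and 5618 with that centring. At 10 cGy in GM15510 it was 412 and 376, and 144 and 47.

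**Figure D3:**
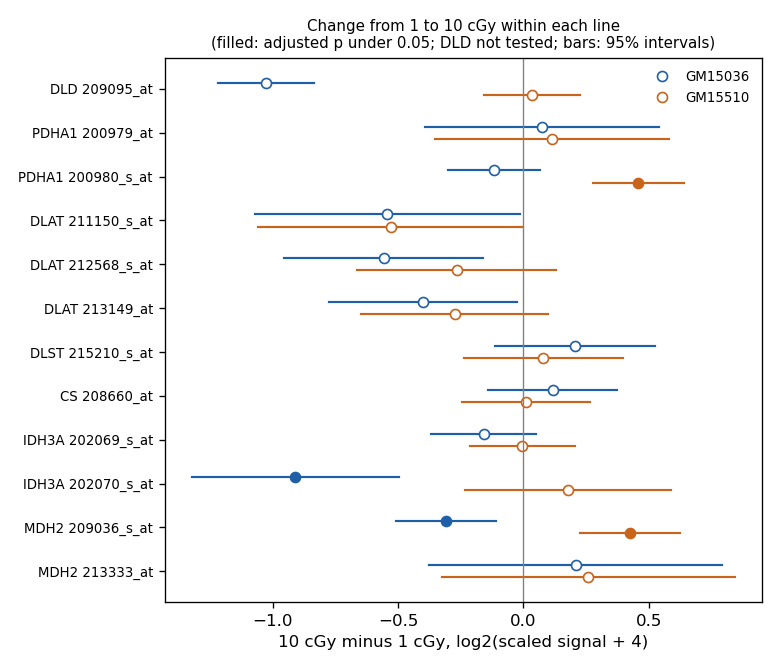
Log2 difference between 10 and 1 cGy of each member probe set in GM15036 and in GM15510, with 95 percent confidence intervals from limma and 3 arrays a group. Filled points have an adjusted p under 0.05. DLD (-1.03 in GM15036, 0.03 in GM15510) is a description, and MDH2 209036_s_at shows -0.31 beside 0.42.

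An F test asked for any difference among the 5 doses. It passed for 2 of 11 in GM15036 (18.2%, against 16.2% of all probe sets), IDH3A 202070_s_at (adjusted p 0.0145) and MDH2 209036_s_at (0.0199). Both failed without GM15036 10 cGy replicate b, the first also without 1 cGy replicate c (adjusted p up to 0.0817) and the second without 10 cGy replicate c (up to 0.111). Both also failed with eBayes without a trend and with brightness or the GAPDH ratio as a covariate, at adjusted p up to 0.706 and 0.304, and that of MDH2 without the 5 dimmest arrays. In GM15510 it passed for 3 of 11 (27.3% against 21.0%), PDHA1 200980_s_at (0.00093), IDH3A 202069_s_at (0.0170) and MDH2 209036_s_at (0.00071). That of IDH3A 202069_s_at failed without 2.5 cGy replicate 1 or 2 (up to 0.0853), with brightness as a covariate (0.568) and without the 5 dimmest arrays. These shares are near the background. The test of the difference itself, line by dose, passed for 4 of 11 (36.4% against 20.5%). For MDH2 209036_s_at the adjusted p was 4.68e-05, and the GM15510 difference from 1 cGy exceeded that of GM15036 by 0.73 (SE 0.139) at 10 cGy. PDHA1 200980_s_at (0.0119) had 0.58 (SE 0.127) at 10 cGy, with positive values at the other doses too (0.29, 0.21 and 0.38). IDH3A 202070_s_at (0.0100) had 1.09 (SE 0.287) at 10 cGy. IDH3A 202069_s_at (0.0081) had -0.50 (SE 0.146) at 2.5 cGy and 0.15 at 10 cGy. Under every alternative and without each array, MDH2 and PDHA1 passed, at adjusted p up to 0.0468 and 0.0429. Both IDH3A probe sets failed with brightness as a covariate and without the 5 dimmest arrays, with adjusted p up to 0.198 for 202069_s_at and 0.254 for 202070_s_at. IDH3A 202070_s_at also failed without GM15036 10 cGy replicate b (0.0510).

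The lines differed in the level of several members when averaged over the 5 doses, as measured by GM15510 minus GM15036. For DLD this average was 0.52 (SE 0.042), given with no test, since it takes in the doses at which the lines' courses parted. The difference was 0.34 at 1 cGy, 0.11 at 2.5, -0.02 at 5, 0.76 at 7.5 and 1.40 at 10 cGy, so the average stems mostly from 1, 7.5 and 10 cGy. All 3 DLAT probe sets were higher in GM15510, by 0.75 (SE 0.116), 0.39 (SE 0.087) and 0.32 (SE 0.082), and at each of the 5 doses. On 211150_s_at the arrays ran from 12.8 to 40.7 in GM15036 and from 33.2 to 76.1 in GM15510. Adding the GAPDH or ACTB 3-prime to 5-prime ratio as a covariate ended the calls of 212568_s_at and 213149_at, with adjusted p up to 0.160 and 0.172, and kept that of 211150_s_at. IDH3A 202069_s_at was higher in GM15510 by 0.33 (SE 0.046), again at all 5 doses, and 202070_s_at was not (-0.07, adjusted p 0.583).

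DLST was lower in GM15510 by -0.42 (SE 0.070), at all 5 doses. MDH2 213333_at was lower by -0.39 (SE 0.128, adjusted p 0.0121), at all 5 doses, but failed under 5 of 15 alternatives. MDH2 209036_s_at (0.05, adjusted p 0.367), CS (-0.04, adjusted p 0.556) and both PDHA1 probe sets (-0.00 and -0.09, adjusted p 0.991 and 0.0542) did not pass. Without DLD, 6 of 11 passed, 4 higher and 2 lower in GM15510 (54.5%). Of all probe sets 47.2% passed, 20.5% higher and 26.7% lower, so a difference between the lines was common on these arrays. The median was -0.00 for these 11 and -0.07 for all probe sets. Centring unscaled arrays on the median turned the split of all calls from 2733 higher and 3559 lower to 3648 and 1962.

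**Figure D4:**
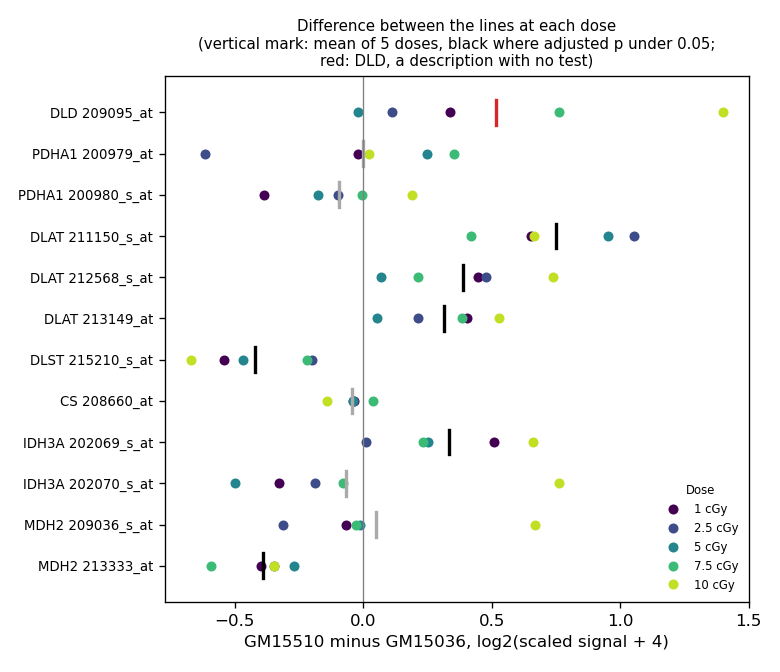
Log2 difference of GM15510 minus GM15036, for the 12 member probe sets above the filter. Points are the differences of group means at each of the 5 doses, and vertical marks the average over doses, black where the adjusted p is under 0.05 and red for DLD, which has no test. By this average DLD (0.52), the 3 DLAT probe sets and IDH3A 202069_s_at lie above 0, and DLST (-0.42) and MDH2 213333_at (-0.39) below it.

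The genes whose 10 group means ran most like those of DLD were NDUFA9 (Pearson r 0.988), LGALS8 (0.982), VPS4B (0.981), FARS2 (0.973) and ATP5F1B (0.970). NDUFA9 is a subunit of respiratory complex I and ATP5F1B the catalytic beta subunit of the ATP synthase. LGALS8 is a galectin, VPS4B an ATPase of membrane scission and FARS2 the mitochondrial phenylalanyl-tRNA synthetase. At 10 cGy in GM15036 they differed from 1 cGy by -0.56, -1.09, -0.75, -0.71 and -0.84 in that order. Of the members, DLAT 213149_at (0.910), DLAT 212568_s_at (0.808) and IDH3A 202069_s_at (0.798) had the highest r with DLD. DLST (-0.697) and MDH2 213333_at (-0.703) had the lowest, and CS had -0.286. These are descriptions over 10 group means, which share arrays and brightness with DLD.

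Other genes of these pathways were read from 7 lists of 43 genes, chosen with earlier results in view, of which 34 genes had 51 tested probe sets. At 10 cGy in GM15036, 14 of 51 passed, 13 lower and 1 higher (27.5%, against 11.7% of all probe sets). Without the 5 dimmest arrays, which leaves 1 array in that group, taken to vary like the others, 10 passed, and 5.63% of all probe sets. With brightness as a covariate 5 did, and 2.72% of all probe sets. In the F test over doses 20 passed in GM15036 (39.2%, against 16.2% of all) and 15 in GM15510 (29.4%, against 21.0%). With the covariate 10 and 3 did, against 9.05% and 13.2% of all, so the GM15510 share was then below the background. The GM15510 count was 8 without 10 cGy replicate 1. In GM15510, 10 of 51 passed at 2.5 cGy (3 higher, 7 lower; 19.6%, against 9.49% of all). Counts of 4 at 5 cGy, 1 at 7.5 cGy and 3 at 10 cGy stood beside 4.19%, 1.79% and 5.91% of all, and the last 2 are at the background. The 2.5 cGy count was 1 with the brightness covariate (0.863% of all) and 4, 5 and 6 without 1 cGy replicate 1, 1 cGy replicate 2 and 2.5 cGy replicate 3. The line by dose test passed for 16 (31.4%, against 20.5% of all), or 5 with the covariate, where 11.6% of all passed. The line difference passed for 27 (20 higher, 7 lower; 52.9%), close to the 47.2% of all.

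All 3 tested probe sets of the other pyruvate dehydrogenase subunits fell at 10 cGy in GM15036, where 7.35% of all probe sets were called lower. PDHX, the protein that binds E3 to the complex, fell by 0.70 (adjusted p 0.00016). PDHB, the E1 beta subunit, fell by 0.51 (208911_s_at, adjusted p 0.0088) and 0.71 (211023_at, adjusted p 0.00067). None of the 3 passed with brightness as a covariate, at -0.42, -0.65 and -0.57 (adjusted p 0.193, 0.0656 and 0.139). The fall of 208911_s_at was also lost without GM15036 1 cGy replicate a or b. In GM15510, PDHB 208911_s_at rose at 2.5 cGy by 0.45 (adjusted p 0.0286), which became -0.27 with median centring and was lost without 1 cGy replicate 1 or 2 or 2.5 cGy replicate 3. The pyruvate dehydrogenase kinases and phosphatases, which switch E1 off and on, had 5 tested probe sets of 4 genes, and 0 passed any comparison in limma. Of all probe sets, 47.2% passed the line difference and 11.7% the comparison of 10 with 1 cGy in GM15036.

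Of the genes that bring pyruvate and acetyl groups to the cycle, ME2, the mitochondrial malic enzyme, fell on all 3 probe sets at 10 cGy in GM15036 (-0.62, -0.86 and -1.21). With the brightness covariate 210154_at (-1.53, adjusted p 0.0049) and 210153_s_at (-0.82, adjusted p 0.0257) still passed, and 209397_at did not (-0.45, adjusted p 0.070). In GM15510, 210154_at fell at 2.5 cGy (-0.82, adjusted p 0.0145). There 210153_s_at fell at 2.5 cGy (-0.43, adjusted p 0.0496) and 5 cGy (-0.51, adjusted p 0.0336). None of these GM15510 calls passed with the covariate, and they were lost without any 1 of 2, 23 and 5 arrays. At 10 cGy in GM15510 the 3 probe sets had -0.27, -0.41 and -0.44, and none passed. Averaged over doses, ME2 was higher in GM15510 than in GM15036, by 0.60, 0.73 and 0.82. MPC1, a subunit of the mitochondrial pyruvate carrier, was lower in GM15510 by -0.31 (adjusted p 0.0761 with median centring), and its partner MPC2 was higher by 0.19 (adjusted p 0.0299), and this call was lost without any 1 of 6 arrays (adjusted p up to 0.0637). Among the other cycle enzymes, 5 of 18 probe sets fell at 10 cGy in GM15036, where 7.35% of all did. SUCLG1 and SUCLA2, subunits of succinyl-CoA ligase, were higher in GM15510 by 0.66 and 0.69. SUCLA2 fell in GM15510 at 2.5 cGy by 0.88 (adjusted p 0.00018), and did not pass with the covariate (-0.82, adjusted p 0.0918). IDH3B, the beta subunit that pairs with IDH3A, was higher in GM15510 on 3 probe sets, by 0.30, 0.54 and 0.46. The first of these, 201509_at, did not pass with the GAPDH or ACTB ratio as a covariate (adjusted p up to 0.153).

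Of the other complexes that use DLD as their E3, the branched-chain E2 DBT rose on 205370_x_at, by 0.59 (adjusted p 4.79e-06) at 10 cGy in GM15036 and by 0.69, 0.75 and 0.52 at 2.5, 5 and 7.5 cGy in GM15510. It also passed at 2.5 and 7.5 cGy in GM15036 (0.39 and 0.32). The latter calls were lost under 4 and 7 of 16 alternatives, and each without any 1 of several arrays (5 and 4). With median centring none of these 6 passed, and those at 10 cGy in GM15036 and 2.5 cGy in GM15510 turned to -0.061 and -0.074. Its other probe set, 205371_s_at, passed in none of the 9 comparisons of groups and had -1.11 (adjusted p 0.0514) at 10 cGy in GM15036, opposite in sign. The line difference was -0.60 (limma adjusted p 1.24e-15) on 205370_x_at and 0.32 (adjusted p 0.126) on 205371_s_at. GLDC, the glycine decarboxylase, rose at 10 cGy in GM15510 by 0.70 (adjusted p 0.0080), and not without 1 cGy replicate 2 or 10 cGy replicate 1 or 3 (adjusted p up to 0.0666) or with median centring (adjusted p 0.0573). GCSH, the H protein that carries the lipoyl arm of the glycine cleavage system, moved both ways on 213129_s_at. It fell in GM15510 by 0.24 at 2.5 cGy (adjusted p 0.0471) and 0.30 at 5 cGy (adjusted p 0.0180), and rose in GM15036 by 0.30 at 7.5 cGy (adjusted p 0.0252). These calls were lost under 12, 4 and 6 of 16 alternatives and without any 1 of 17, 3 and 4 arrays. Its line difference was -0.22 (adjusted p 3.56e-06), lost with centring on the median before or after scaling. The other GCSH probe set, 213133_s_at, passed no test. LIPT1 and LIAS, which attach and make the lipoyl group of the E2 subunits, were higher in GM15510 by 0.34 and 0.27 (adjusted p 0.0033 and 0.0487). The LIPT1 call was lost with the ACTB ratio as a covariate. The LIAS call was lost under 6 of 15 alternatives and without any 1 of 20 arrays.

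Of the cytosolic counterparts, MDH1, the cytosolic malate dehydrogenase, fell by 0.81 at 10 cGy in GM15036 (adjusted p 6.84e-07), and this call held under all 16 alternatives and without each array. In GM15510 it rose by 0.35 at 2.5 cGy (adjusted p 0.0158), which turned to -0.42 with median centring and did not pass with brightness as a covariate (0.43, adjusted p 0.171), or without GM15510 1 cGy replicate 1 or 2.5 cGy replicate 3 (values from 0.30, adjusted p up to 0.072). IDH1, the cytosolic NADP-dependent isocitrate dehydrogenase, fell by 0.50 at 10 cGy in GM15036 (adjusted p 0.0158), and not with brightness as a covariate (-0.39, adjusted p 0.396) or without GM15036 1 cGy replicate a or 10 cGy replicate a or c. ME1, the cytosolic malic enzyme, was lower in GM15510 by -0.93 and -1.38 on its 2 probe sets, opposite to ME2. The test of mitochondrial against cytosolic forms was not made.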

How the data were processed

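Each deposited value is the intensity of a probe set, unlogged, made by the authors in MAS5 (named in the submitters' processing notes). Its version, scaling target and background settings are not given in the sources used here. Their number per group, 3 arrays, limits the precision. Trimmed means of the arrays (2 to 98 percent of values) differed by 7.91 times, above the limit of 1.2 set for using values unscaled, so each array was scaled to their mean, 50.9. A pseudocount of 4 was added before log2, which understates the change of dim probe sets. The dimmest 40 percent by mean over all arrays and 68 control probe sets were left out, which kept 13331 of 22283.

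Tests used limma 3.58.1 in R 4.3.3 (lmFit on 10 groups, eBayes with trend, 20 residual and 12.3 prior degrees of freedom, two-sided). Adjusted p-values are Benjamini-Hochberg over all 13331, with a threshold of 0.05, and all 30 arrays entered each fit. Symbols came from the platform annotation, updated by gene ID to RefSeq (GRCh38.p14; 19059 of 19071 probe sets with 1 symbol matched, and 1043 had several and 2169 none). Promoters came from RefSeq on the same build. DLD has 2 start entries there, of which the first is printed.

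The members and lists were chosen with earlier results of these data known. Named are all members with every probe set, up to 3 genes of each wider list with the smallest p past the threshold in an F test or the line difference, and the 5 genes most correlated with DLD. A symbol may stand on several probe sets, and each is given. The fit was tested on simulated data. Same-numbered arrays of a line did not deviate together (r from -0.0552 to 0.0409 in GM15036 and -0.0616 to 0.097 in GM15510), so the numbers were not taken as pairs. The alternatives covered normalization, pseudocount, filter, moderation, array weights, covariates and arrays left out; for the wider lists they were chosen after seeing the data.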

Additional observations from a re-analysis of the deposited data

Results flagged for a closer look

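The response to dose differed between GM15036 and GM15510 for 4 of 11 member probe sets by limma's test of the line by dose difference. Of all 13331 tested probe sets, over which p was adjusted, 20.5% passed the same test. The adjusted p was 4.68e-05 for MDH2 209036_s_at, 0.0081 for IDH3A 202069_s_at, 0.0100 for IDH3A 202070_s_at and 0.0119 for PDHA1 200980_s_at. MDH2 209036_s_at had -0.31 in GM15036 and 0.42 in GM15510 at 10 cGy. The GM15036 value was -0.10 (adjusted p 0.828) with brightness as a covariate and was lost under 6 of 16 alternatives, and MDH2 213333_at had 0.21 there. IDH3A 202070_s_at was lower in GM15036 (-0.91) and not called in GM15510 (0.18). PDHA1 200980_s_at was higher at 10 cGy in GM15510 (0.46) and not called in GM15036 (-0.12). PDHA1 200979_at had 0.11 (adjusted p 0.907) in GM15510 and 0.075 in GM15036 at that dose. It did not pass the line by dose test (adjusted p 0.152). IDH3A 202069_s_at was lower at 2.5 cGy in GM15510 (-0.41) beside 0.09 in GM15036. The mean brightness of the arrays also differed in its course, from 69.6 to 22.1 between 1 and 10 cGy in GM15036 and from 69.4 to 89.1 in GM15510. With brightness as a covariate, the line by dose tests of MDH2 and PDHA1 still passed and neither IDH3A probe set did. Groups of 3 arrays are too small for a test of single outlying arrays.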

How the results depend on the processing

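Without DLD, which carries no test, the line difference passed for 6 of 11 member probe sets, where 47.2% of all probe sets passed. The line difference counts of this section count DLD too. The number of member probe sets past the threshold was 7 for the line difference (DLD included), 2 and 3 for any dose difference in GM15036 and GM15510, and 4 for line by dose. Calls against 1 cGy were 2 in GM15036 and 5 in GM15510. With median centring of unscaled arrays the last 5 of these counts became 7, 8, 8, 9 and 11. Of all probe sets, 27.2% and 47.2% then passed for any dose difference in GM15036 and GM15510, and 44.1% for line by dose. At 10 cGy in GM15036 32.4% of all passed, and at 2.5 cGy in GM15510 42.7%. With this centring the median difference over all probe sets was -0.38 (GM15036, 10 cGy), -0.50 (GM15510, 2.5 cGy) and -0.29 (GM15510, 5 cGy), against 0.03, -0.01 and -0.01 as reported. Centring after scaling gave 5 for any dose difference in GM15510 and 7 calls in GM15036, with medians of -0.20 (GM15036, 10 cGy) and -0.28 (GM15510, 2.5 cGy). With brightness as a covariate the counts for any dose difference were 1 and 2, line by dose 2, and calls 1 and 2. Of all probe sets, 9.05% and 13.2% then passed for any dose difference and 11.6% for line by dose. The GAPDH ratio as a covariate gave 4 line differences (33.6% of all probe sets), 0 for any dose difference in GM15036 (10.8% of all) and 1 call in GM15036. The ACTB ratio gave 4 line differences (35% of all) and 1 call in GM15036. eBayes without a trend gave 0 for any dose difference in GM15036, where the reported fit has 3 at an unadjusted p under 0.05. Without the 5 dimmest arrays line by dose was 2, and calls were 3 in GM15036 and 2 in GM15510. A filter of 60 percent gave 3 calls in GM15036. Leaving out each array in turn gave 7 to 8 line differences, 0 to 2 and 2 to 5 for any dose difference in GM15036 and GM15510, 3 to 5 for line by dose, and 1 to 3 and 2 to 6 calls. For any dose difference in GM15036 the count was 1 without GM15036 1 cGy replicate c or 10 cGy replicate c and 0 without 10 cGy replicate b. Calls in GM15036 were 1 without 1 cGy replicate b or c or 10 cGy replicate b or c. For any dose difference in GM15510 the count was 5 without GM15510 2.5 cGy replicate 3. Calls in GM15510 were 2 without 1 cGy replicate 3 and 3 without 2.5 cGy replicate 2. The cause of these shifts was not tested.

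With the replicate label as a replicate block every count stayed at its value (7, 2, 3, 4, 2 and 5), and it changed no call of a member. Fitting each line alone gives no line difference and no line by dose test. Of 22 single calls of members other than DLD, 7 kept direction and side of the threshold in every alternative that could be fitted and 13 without each array. The untested DLD difference at 7.5 cGy in GM15510, 0.01, became -0.037 with quantile normalization, -0.040 with centring after scaling and -0.062 with median centring, and was also below 0 without 1 cGy replicate 2 or 7.5 cGy replicate 3. Reversals of calls came with median centring alone, at 2.5 cGy in GM15510 for PDHA1 200980_s_at (-0.39), DLST (-0.16), MDH1 (-0.42), PDHB 208911_s_at (-0.27) and DBT 205370_x_at (-0.074), at 10 cGy in GM15036 for DBT 205370_x_at (-0.061), and at 7.5 cGy in GM15036 for GCSH 213129_s_at (-0.0058). Dim arrays and dim probe sets such as OGDH, MDH2 213333_at and DLAT 211150_s_at limit what could be seen.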
